A study of Rattus norvegicus with 23 samples.

Results

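The genes described here are those with which liver cells capture, sense and inactivate lipopolysaccharide (LPS), the glycolipid of the outer membrane of Gram-negative bacteria. They were chosen by name as a fixed list of 10 genes, covering the LPS receptor complex, its adaptors and kinases, the LPS deacylase and a related receptor. Of the 10, 9 (Lbp, Cd14, Tlr4, Tlr2, Myd88, Ticam2, Irak1, Irak3 and Aoah) were among the 28913 genes of the count table, and all 9 were among the 15079 genes with enough reads to be tested. Ly96, which encodes the MD-2 subunit of the receptor, was not analysed here.

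RNA from whole liver of Sprague Dawley rats was sequenced as 23 libraries in 3 groups, in a study that models portosinusoidal vascular disease, in which small hepatic vessels are damaged. The 10 Selfox libraries came from rats that ate a selenium-enriched diet for 8 weeks and were given 8 weekly intravenous injections that combined folinic acid at 45 mg/kg, 5-FU at 25 mg/kg and oxaliplatin at 3 mg/kg. The 7 LPS libraries came from rats whose portal system was reached by surgery through an indwelling catheter in the gastric vein, and which received LPS boluses of 1 mg/kg through it, 2 per week, for 8 weeks. Rats with no treatment gave the 6 Control libraries. No surgery, catheter or vehicle is given for Control, so LPS and the operation cannot be told apart, and neither can the diet and the drugs of Selfox. The sources used here give no age, sex or time between the last injection and tissue collection. The labels do not say that each library is a separate rat, so p-values measure the spread between libraries.

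As background, LPS in blood is bound by LBP, a plasma protein secreted by hepatocytes, and handed to CD14, a lipid-anchored co-receptor that passes it to the TLR4 and MD-2 complex. TLR4 then signals at the cell surface through the adaptor MyD88 and the IRAK kinases to NF-kB, and from endosomes through the bridging adaptor TRAM, the product of Ticam2, to interferon regulatory factors. IRAK-M, the product of Irak3, restrains the kinase cascade, and AOAH cleaves the secondary acyl chains of LPS, which leaves a molecule that stimulates TLR4 poorly. The liver receives LPS from the gut through the portal vein, and its Kupffer cells, the resident macrophages of the sinusoids, take up much of it.

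Total counts per library, in units of 1e+06 counts, were 65.1 to 74.8 in Selfox, 70.4 to 79.2 in LPS and 31.9 to 53.8 in Control. Levels are given as CPM, counts scaled to a library of 1e+06, which are not corrected for transcript length. Levels of different genes are therefore not compared, except for the clock genes Dbp and Arntl below. Hepatocyte markers stood at 143800 to 167000 summed CPM in Selfox, 126600 to 201000 in LPS and 164100 to 242400 in Control. In 5 libraries (Selfox 8, LPS 5, LPS 6, LPS 7 and Control 55) the clock gene Dbp exceeded Arntl, which cycles in antiphase to it. These late-clock libraries are 1 of 10 in Selfox, 3 of 7 in LPS and 1 of 6 in Control, and calls of members that were lost without them are named beside the result. In Selfox 8 Dbp and Arntl were nearly equal, at 3.352 and 3.348 log2 CPM. Its place among the late-clock libraries rests on that narrow margin, and Selfox values without these libraries depend on it.

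Against Control, 3 members passed the test in the LPS model and 1 in the chemotherapy model. In LPS livers the deacylase gene Aoah rose 2.2-fold over Control, the receptor gene Tlr4 fell to 0.6 of the Control level and the kinase gene Irak1 fell to 0.856 of it, while Cd14, Lbp and the other 4 did not pass the test. In Selfox livers Cd14 rose 1.89-fold over Control and no other member passed. Set against LPS livers, Selfox livers had higher Cd14 and Ticam2 and lower Aoah. Without the late-clock libraries the Cd14 and Ticam2 calls against LPS were lost, as was the Irak1 call against Control. A change was called where the Benjamini-Hochberg adjusted p of edgeR's quasi-likelihood test, taken over all 15079 genes, was under 0.05. By that rule 3 of the 9 members were called in LPS over Control (1 higher, 2 lower), where 14.7% of all genes tested were called (7.71% higher, 6.99% lower). In Selfox over Control it was 1 of 9 (higher), against 29.1% of all genes (14.2% higher, 14.9% lower), and in Selfox over LPS 3 of 9 (2 higher, 1 lower), against 14.5% (6.86% higher, 7.64% lower). Counts this small are not read as particular to the list. Every library of a group lay beyond every library of the other for 1 of 9 members in LPS over Control (3.64% of all genes), 0 of 9 in Selfox over Control (4.91%) and 0 of 9 in Selfox over LPS (1.74%). The median log2 fold change of the 9 was -0.01 in LPS over Control, 0.22 in Selfox over Control and 0.13 in Selfox over LPS, and over all genes it was 0.01, 0.01 and 0.00. The first pair of comparisons shares its Control libraries, so their values are not independent of each other.

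**Figure D1:**
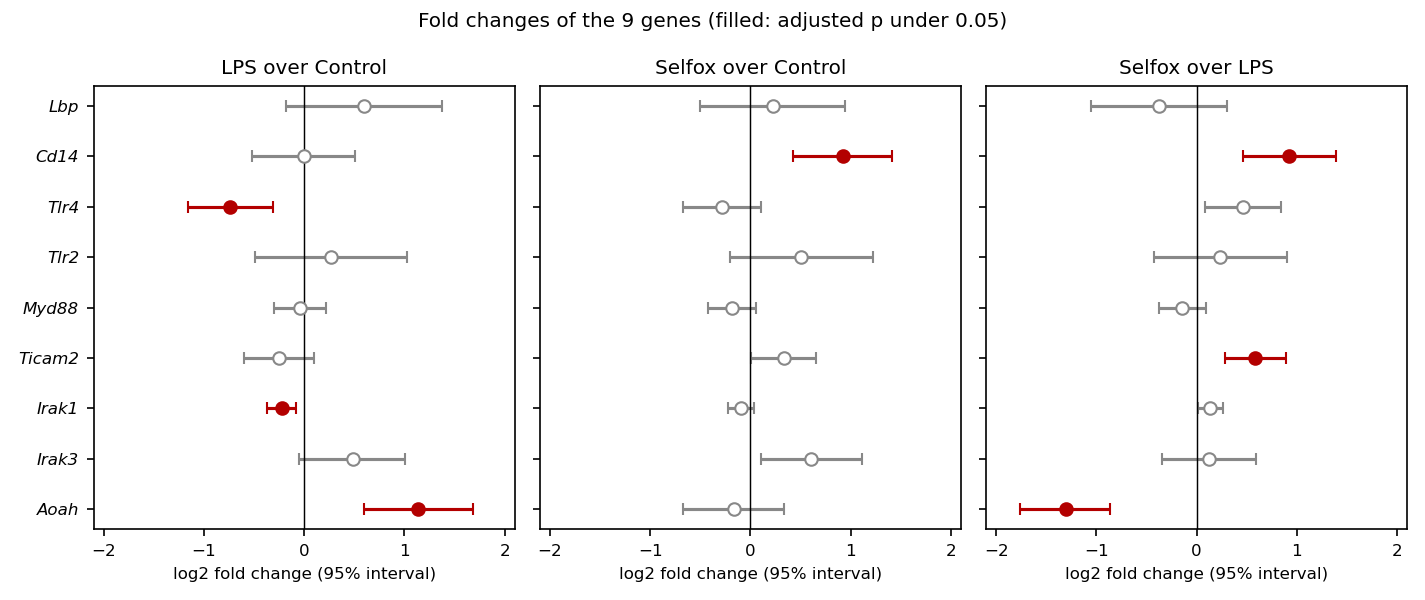
Log2 fold change of each of the 9 genes (horizontal axis) in LPS over Control, Selfox over Control and Selfox over LPS, with bars for the 95% interval. Filled red points passed the test: Tlr4, Irak1 and Aoah in the left panel, Cd14 in the middle panel, and Cd14, Ticam2 and Aoah in the right panel.

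Aoah encodes acyloxyacyl hydrolase, the secreted lipase that detoxifies LPS, and was the member with the largest change. In LPS livers it ranged from 1.06 to 3.04 CPM with a median of 1.84 (1.95 ± 0.692, mean ± SD, n = 7), against 0.469 to 1.41 CPM with a median of 0.907 in Control (0.885 ± 0.342, n = 6). LPS 4, LPS 2, LPS 3, LPS 1 and LPS 7 lay above every Control library, while LPS 6 (1.34 CPM) and LPS 5 (1.06 CPM) lay within the range of Control. The log2 fold change was 1.14 ± 0.27 (SE), with an adjusted p of 0.00734 by edgeR, and the call held in all 13 fits that left out 1 library (0.999 to 1.31). LPS 5 and LPS 6 are late-clock libraries, and without the late-clock libraries the value was 1.29 (adjusted p = 0.00152 by edgeR). The gene had few reads, 77 to 238 in LPS and 18 to 55 in Control, and it overlaps a pseudogene in the RefSeq annotation.

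In Selfox livers Aoah stood at 0.552 to 1.4 CPM with a median of 0.68, inside the range of Control in all 10 libraries. The log2 fold change over Control was -0.17, with an interval from -0.67 to 0.34 (a 95% interval, as for the others given here), and it was -0.43 (adjusted p = 0.116) without the late-clock libraries. Against LPS livers, 9 of 10 Selfox libraries lay below every LPS library, and the log2 fold change was -1.31 ± 0.23 (adjusted p = 0.000519 by edgeR). Selfox 8, at 1.4 CPM, was the exception. Kupffer cell markers, macrophage genes, were lower in Selfox than in LPS for 11 of 11 tested. Their summed level was 285 to 445 CPM in Selfox and 681 to 1051 CPM in LPS. Aoah is carried by macrophages and other myeloid cells, and fewer cells of a type and less RNA per cell cannot be told apart in whole liver, here or for any other member. In Control the summed level of these 11 markers was 788 to 1071 CPM, overlapping LPS. Of the markers taken 1 by 1, Adgre1 was higher in LPS over Control (0.68 ± 0.18, adjusted p = 0.0132) and the other 10 did not pass. The part of Kupffer cells in either Aoah result was not tested.

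The 250 bases before the Aoah transcript start are shown because this gene was called in both comparisons with LPS livers. They come from RefSeq (GRCr8, chr17:48745147-48745396, minus strand), 5′ to 3′. Here and in the sequences further on, capitals mark matches, on either strand, to 6 short motifs.
Aoah promoter: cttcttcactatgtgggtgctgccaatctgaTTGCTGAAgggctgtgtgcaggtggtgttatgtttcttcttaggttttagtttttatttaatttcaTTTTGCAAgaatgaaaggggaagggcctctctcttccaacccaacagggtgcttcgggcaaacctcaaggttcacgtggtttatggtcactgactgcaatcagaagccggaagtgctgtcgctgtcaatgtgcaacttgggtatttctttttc
The motifs searched were TTCNNNGAA (STAT), TTGCNNAA (C/EBP), TGANTCA (AP-1), GAGGAA (PU.1) and, by their longer consensus, NF-kB and the interferon-stimulated response element (ISRE). Of 33469 rat promoter windows of the same length, 6.33% held the NF-kB consensus, 7.67% STAT, 9.22% C/EBP, 6.34% AP-1, 23.3% PU.1 and 1.51% the ISRE. Aoah held 2 matches to C/EBP, which did not overlap, and none to the other 5. Of the 10 listed genes 8 had a window in the RefSeq table, and Lbp and Ly96 had none. Of the 8, NF-kB letters stood in Tlr2 and Irak3 and the ISRE in 0. A match is a string of letters and does not show that a factor binds there.

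Cd14 encodes the LPS co-receptor of monocytes and macrophages, which hepatocytes also secrete in soluble form. In Selfox livers it ranged from 29.5 to 81.8 CPM with a median of 49.3 (53.2 ± 17.9, n = 10), against 19.1 to 41.8 CPM with a median of 27 in Control (28.1 ± 9.71, n = 6). Selfox 8, 3, 5, 4, 1 and 2 lay above every Control library and the other 4, from 29.5 to 41.8 CPM, within the range of Control. This was a log2 fold change of 0.92 ± 0.25 (adjusted p = 0.00891 by edgeR), and the call held in all 16 fits without 1 library and without the late-clock libraries (0.75, adjusted p = 0.0330).

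In LPS livers Cd14 overlapped Control, from 18.5 to 48.8 CPM with a median of 24.2 (28 ± 10.6, n = 7), and the log2 fold change of -0.01 had an interval from -0.52 to 0.51. Only LPS 4 lay above every Control library. Selfox over LPS gave 0.93 ± 0.24 (adjusted p = 0.0113), a call lost without the late-clock libraries, where the value was 0.59 (adjusted p = 0.192).

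The rise of Cd14 in Selfox went against the Kupffer cell markers, of which 11 of 11 tested fell in Selfox over Control. Their summed level was 285 to 445 CPM in Selfox and 788 to 1071 CPM in Control. The lowest adjusted p belonged to Marco (-2.94), Vsig4 (-2.03), Clec4f (-1.68) and Cd5l (-1.26), given as log2 fold changes. Of neutrophil markers 5 of 8 tested rose in Selfox and 0 fell, among them Mmp8 (3.24), S100a9 (2.30), S100a8 (2.47) and Csf3r (1.27), with a summed level of 5.35 to 122 CPM in Selfox and 4.45 to 12.6 CPM in Control. None of those 5 was called without the late-clock libraries. The 4 Selfox libraries with the highest Cd14 (Selfox 8, 3, 5 and 4) had neutrophil sums of 87.7, 122, 55.1 and 36 CPM. Selfox 1 and Selfox 2 had Cd14 above every Control library at neutrophil sums of 5.35 and 6 CPM, within the range of Control. Of the 10 neutrophil markers 2 had too few reads to be tested, and up to 2 were at 0 in a Selfox library and up to 3 in a Control library. The part of these cells in the Cd14 result was not tested.

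**Figure D2:**
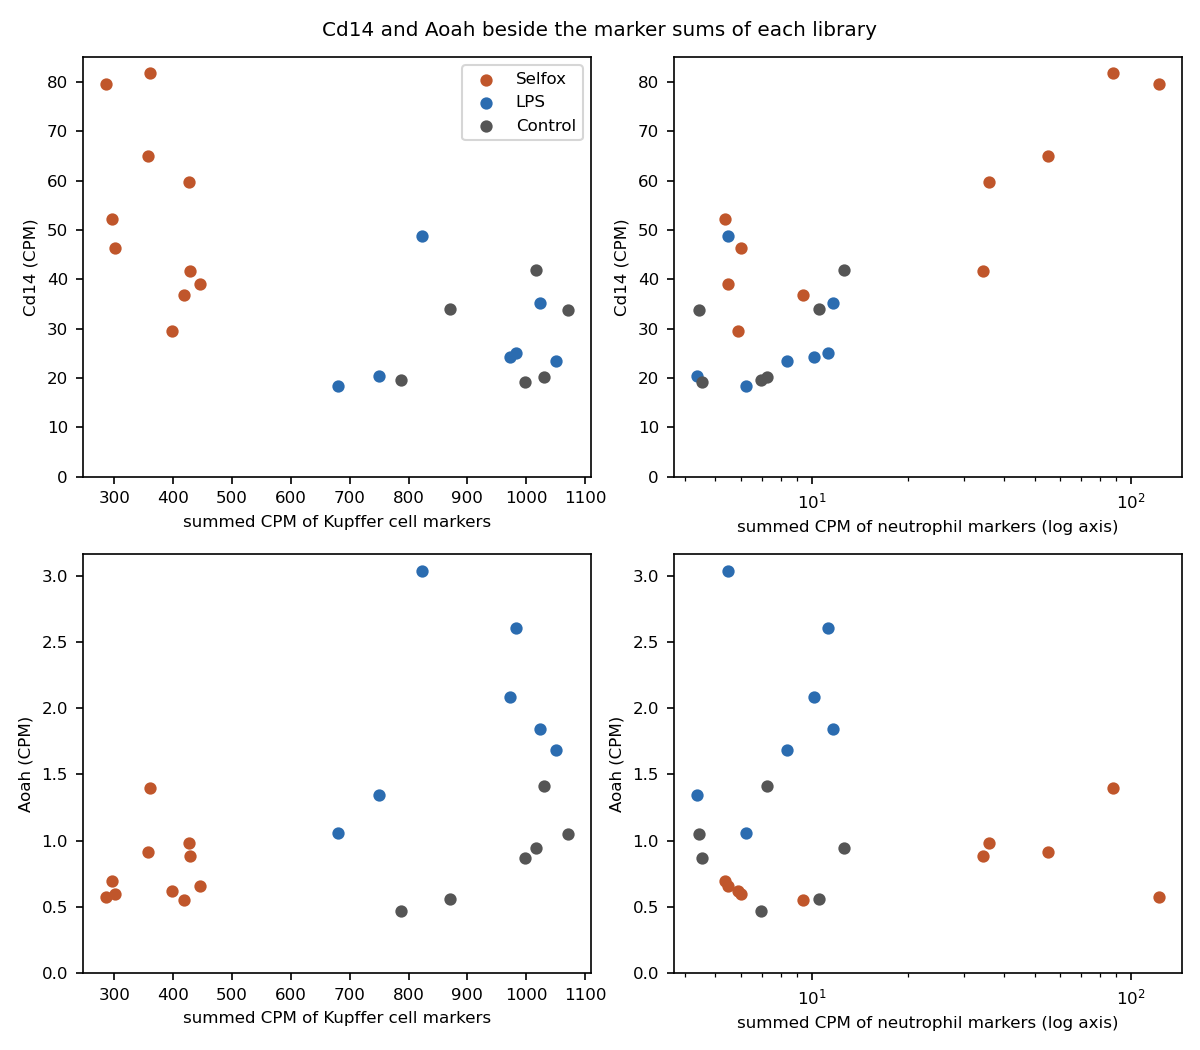
Cd14 (upper row) and Aoah (lower row), in CPM, against the summed CPM of 11 Kupffer cell markers (left) and of 10 neutrophil markers (right, log axis), with 1 point per library. All 10 Selfox libraries lie between 285 and 445 CPM of Kupffer markers. LPS libraries (681 to 1051 CPM) and Control libraries (788 to 1071 CPM) lie higher and overlap each other on that axis. Aoah is above every Control library in 5 of 7 LPS libraries.

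The Cd14 promoter is shown because Cd14 was the 1 member that changed in Selfox livers over Control. It is RefSeq GRCr8 chr18:28611159-28611408 on the minus strand.
Cd14 promoter: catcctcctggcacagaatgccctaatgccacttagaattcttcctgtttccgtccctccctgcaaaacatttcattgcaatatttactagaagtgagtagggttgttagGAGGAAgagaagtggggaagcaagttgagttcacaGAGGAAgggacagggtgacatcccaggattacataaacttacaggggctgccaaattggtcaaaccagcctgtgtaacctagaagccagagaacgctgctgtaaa
It held 2 matches to the PU.1 letters, a string found in 23.3% of all promoters, and none to the other 5 motifs in this window.

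Lbp, the hepatocyte gene for the plasma protein that delivers LPS to CD14, varied more between libraries than between groups. It ranged from 61.6 to 308 CPM in Selfox with a median of 87.3, from 83.3 to 315 CPM in LPS with a median of 117, and from 58.3 to 161 CPM in Control with a median of 106 (n = 10, 7 and 6). Selfox 4 and Selfox 8 (308 and 239 CPM) and LPS 7, LPS 5 and LPS 4 (315, 197 and 188 CPM) lay above every Control library, and the groups overlapped. Log2 fold changes were 0.60 in LPS over Control (interval -0.18 to 1.38, adjusted p = 0.332), 0.22 in Selfox over Control (-0.50 to 0.94, adjusted p = 0.686) and -0.38 in Selfox over LPS (-1.05 to 0.30, adjusted p = 0.518). The first and the last of these intervals are wide enough to hold a 2-fold difference. LPS 7, LPS 5 and Selfox 8 are late-clock libraries, and without the late-clock libraries the Lbp values were 0.20 in LPS over Control, -0.06 in Selfox over Control and -0.26 in Selfox over LPS, with no call. Leaving out LPS 7 alone gave 0.34 in LPS over Control.

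Tlr4 encodes the signalling chain of the LPS receptor and fell in LPS livers. It stood at 1.39 to 2.25 CPM with a median of 1.57 in LPS (1.65 ± 0.302, n = 7), against 2.1 to 3.48 CPM with a median of 2.68 in Control (2.75 ± 0.494, n = 6). All LPS libraries but LPS 7 lay below every Control library. On the log2 scale the change was -0.74 ± 0.22 (adjusted p = 0.025 by edgeR). The call rests on 99 to 180 reads per LPS library and 75 to 128 per Control library. It was lost without Control 46 or without Control 52, the libraries with the highest Tlr4 of Control (adjusted p up to 0.065), and held without the late-clock libraries (-0.80, adjusted p = 0.0348).

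In Selfox livers Tlr4 was spread over 1.15 to 3.7 CPM with a median of 2.41 (2.27 ± 0.804, n = 10), on both sides of the range of Control. Selfox 8, 3, 5 and 4 (1.15, 1.29, 1.66 and 1.75 CPM) lay below every Control library and Selfox 9 above. The log2 fold change over Control was -0.28 (-0.67 to 0.11, adjusted p = 0.313) and that over LPS was 0.46 (0.08 to 0.84, adjusted p = 0.116), so the effects of the 2 models on Tlr4 were not shown to differ. Without Selfox 8 the difference passed, with an adjusted p of 0.0434. In LPS over Control, where Tlr4 fell, sinusoidal endothelial markers, another source of Tlr4 in liver, had 0 of 8 called and a median log2 fold change of -0.29. Their summed level was 188 to 379 CPM in LPS and 346 to 422 CPM in Control, and their part in the Tlr4 result was not tested.

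The Tlr4 promoter is shown as that of the receptor gene itself (RefSeq GRCr8 chr5:85160997-85161246, plus strand).
Tlr4 promoter: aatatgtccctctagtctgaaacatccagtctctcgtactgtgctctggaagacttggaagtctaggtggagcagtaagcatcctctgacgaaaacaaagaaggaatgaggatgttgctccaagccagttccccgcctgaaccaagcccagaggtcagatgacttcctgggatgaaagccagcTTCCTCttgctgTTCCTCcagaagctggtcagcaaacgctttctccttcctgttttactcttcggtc
Like that of Cd14 it held 2 matches to the PU.1 letters, both on the minus strand of the gene, and none to the other 5 motifs. These were the only members with PU.1 letters of the 8 with a window.

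**Figure D3:**
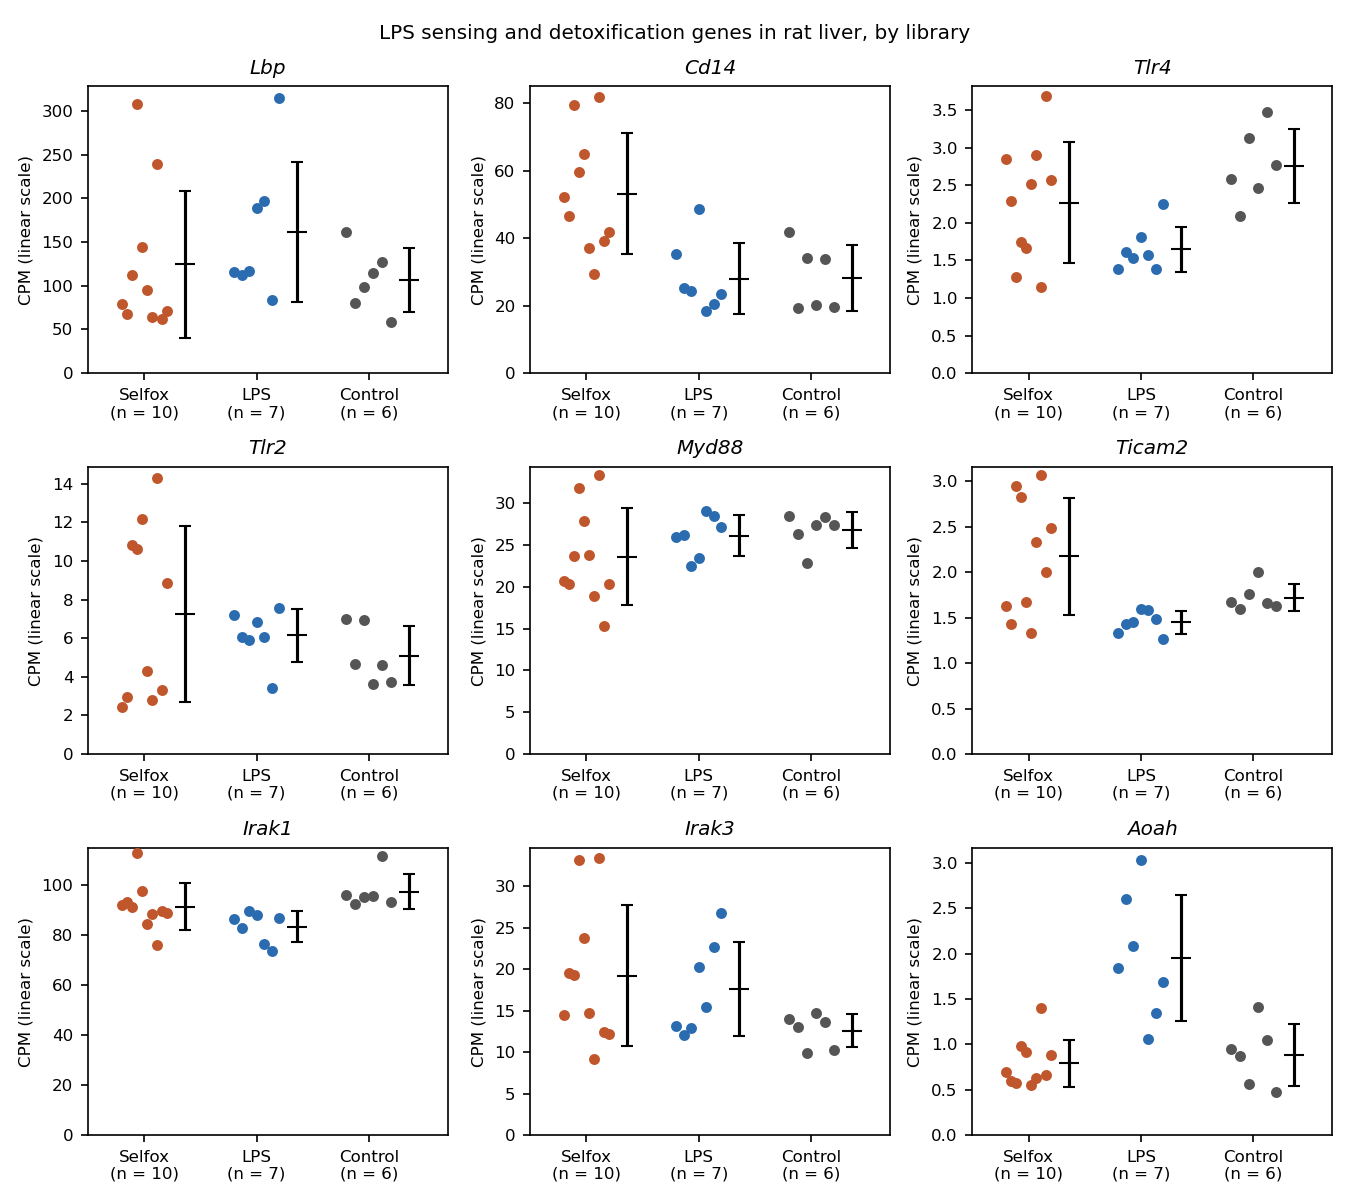
CPM of each gene in every library (points) with the mean and SD of the group (bars), in Selfox (n = 10), LPS (n = 7) and Control (n = 6), each panel on its own linear axis from 0. Aoah is highest in LPS, Cd14 in Selfox, and Tlr2, Irak3, Ticam2 and Myd88 spread more widely in Selfox than in Control.

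Tlr2, which encodes the receptor for bacterial lipoproteins and signals through MyD88 like Tlr4, fell into separate levels among Selfox livers. Selfox 8, 5, 3, 4 and 10 had 14.3, 12.2, 10.8, 10.6 and 8.85 CPM, above every Control library. Selfox 6, 9, 2, 7 and 1 had 4.29, 3.31, 2.95, 2.78 and 2.43 CPM, of which all but Selfox 6 lay below every Control library. LPS libraries ranged from 3.4 to 7.56 CPM with a median of 6.07, and Control libraries from 3.62 to 6.98 CPM with a median of 4.64. The group means of 7.25 ± 4.55 CPM in Selfox, 6.15 ± 1.37 in LPS and 5.1 ± 1.51 in Control differed by less than the spread in Selfox, and the log2 fold changes of 0.51 (Selfox over Control, adjusted p = 0.309), 0.27 (LPS over Control, adjusted p = 0.688) and 0.24 (Selfox over LPS, adjusted p = 0.699) were not called. They were 0.27, 0.27 and -0.00 without the late-clock libraries. The neutrophil marker sum was 34.4 to 122 CPM in Selfox 10, 4, 5, 8 and 3 and 5.35 to 9.42 CPM in Selfox 1, 9, 7, 2 and 6, so that the libraries with the 5 highest Tlr2 values were also those with the 5 highest neutrophil sums. The part of neutrophils in the Tlr2 values was not tested.

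Myd88, the adaptor shared by TLR4, TLR2 and the interleukin-1 receptors, did not pass the test in any comparison, with means of 23.6 CPM in Selfox, 26.1 in LPS and 26.8 in Control. It ranged from 15.3 to 33.4 CPM in Selfox with a median of 22.2, from 22.4 to 29 CPM in LPS with a median of 26.2, and from 22.8 to 28.5 CPM in Control with a median of 27.3. Log2 fold changes were -0.18 in Selfox over Control (-0.42 to 0.06) and -0.04 in LPS over Control (-0.30 to 0.22), and -0.14 in Selfox over LPS (-0.37 to 0.09). The coefficient of variation was 24.6% in Selfox, 9.38% in LPS and 7.86% in Control. In the RefSeq annotation Myd88 overlaps Acaa1a, a peroxisomal thiolase gene, and no strand setting of the counting is known from the sources used here, which leaves its count uncertain. Acaa1a was not called in any comparison (log2 fold change 0.02 in Selfox over Control and -0.04 in LPS over Control).

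Ticam2 encodes TRAM, which brings TLR4 to the interferon arm of the pathway. It was spread over 1.33 to 3.06 CPM with a median of 2.16 in Selfox (2.17 ± 0.647, n = 10), against 1.26 to 1.59 CPM with a median of 1.45 in LPS (1.45 ± 0.122, n = 7). In 8 of 10 Selfox libraries it lay above every LPS library, and Selfox 2 and Selfox 6 lay within the range of LPS. Selfox over LPS gave a log2 fold change of 0.59 ± 0.16 (adjusted p = 0.0127 by edgeR). This call was lost without the late-clock libraries (0.52, adjusted p = 0.0993). The window of Ticam2 (RefSeq GRCr8 chr18:41498066-41498315, minus strand), shown because Ticam2 was called in Selfox over LPS, held none of the 6 motifs.
Ticam2 promoter: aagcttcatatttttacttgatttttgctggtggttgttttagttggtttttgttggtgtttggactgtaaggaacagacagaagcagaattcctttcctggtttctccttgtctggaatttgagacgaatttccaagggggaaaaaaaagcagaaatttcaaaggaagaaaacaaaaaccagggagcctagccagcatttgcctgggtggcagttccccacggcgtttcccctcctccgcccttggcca
Control libraries stood between, at 1.59 to 2 CPM with a median of 1.67, and neither model differed from them by the test (0.34 in Selfox over Control, adjusted p = 0.129, and -0.25 in LPS over Control, adjusted p = 0.372). The gene had 94 to 215 reads in Selfox, 96 to 125 in LPS and 56 to 83 in Control. Tmed7, the neighbouring gene, whose product restrains signalling through TRAM, was not called in any comparison (log2 fold change 0.03 in Selfox over LPS).

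Irak1, the kinase recruited by MyD88, had the lowest coefficient of variation of the 9 within each group (10.3% in Selfox, 7.3% in LPS and 7.28% in Control) and was the only 1 with a comparison, LPS over Control, in which the groups did not overlap. It ranged from 73.5 to 89.4 CPM with a median of 86.2 in LPS (83.2 ± 6.08, n = 7), against 92.2 to 111 CPM with a median of 95.3 in Control (97.2 ± 7.08, n = 6), so all 7 LPS libraries lay below every Control library. The fall was small, at -0.22 ± 0.073 on the log2 scale (adjusted p = 0.0417 by edgeR). In 7 of 13 fits that left out 1 library it was no longer called (Control 40, 46, 49 and 52 and LPS 2, 5 and 6), with an adjusted p of up to 0.11. Leaving out the late-clock libraries gave -0.18 with an adjusted p of 0.134. In Selfox it ranged from 76.1 to 113 CPM with a median of 90.2, overlapping Control, and the log2 fold change of -0.09 (-0.22 to 0.04) was not called, nor was that of 0.13 in Selfox over LPS (0.01 to 0.26, adjusted p = 0.181). In the RefSeq annotation Irak1 overlaps a microRNA gene and a small nucleolar RNA gene. Its window (RefSeq GRCr8 chrX:156929826-156930075, minus strand), shown because Irak1 alone separated LPS from Control without overlap, held none of the 6 motifs.
Irak1 promoter: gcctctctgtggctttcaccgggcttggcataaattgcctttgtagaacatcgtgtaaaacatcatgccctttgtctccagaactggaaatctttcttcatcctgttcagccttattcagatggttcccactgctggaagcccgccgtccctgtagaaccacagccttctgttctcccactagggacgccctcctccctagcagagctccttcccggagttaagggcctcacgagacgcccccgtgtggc

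Irak3, the inhibitory kinase homologue that monocytes and macrophages induce after LPS, was not called in either model. It ranged from 9.19 to 33.4 CPM with a median of 17 in Selfox (19.2 ± 8.52, n = 10), from 12 to 26.8 CPM with a median of 15.4 in LPS (17.6 ± 5.72, n = 7) and from 9.9 to 14.7 CPM with a median of 13.3 in Control (12.6 ± 2, n = 6). Selfox 8, 4, 5, 2 and 3 and LPS 7, 6, 4 and 5 lay above every Control library. Log2 fold changes were 0.61 in Selfox over Control (0.11 to 1.11, adjusted p = 0.075) and 0.48 in LPS over Control (-0.05 to 1.01, adjusted p = 0.241). With DESeq2 the Selfox value was called (0.62, adjusted p = 0.0374), as it was by edgeR without Selfox 7 (adjusted p = 0.0349). Without the late-clock libraries, 3 of which are LPS 5, 6 and 7, the value was 0.43 in Selfox over Control and 0.15 in LPS over Control, neither called. Selfox over LPS gave 0.13 (-0.34 to 0.59, adjusted p = 0.781).

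**Figure D4:**
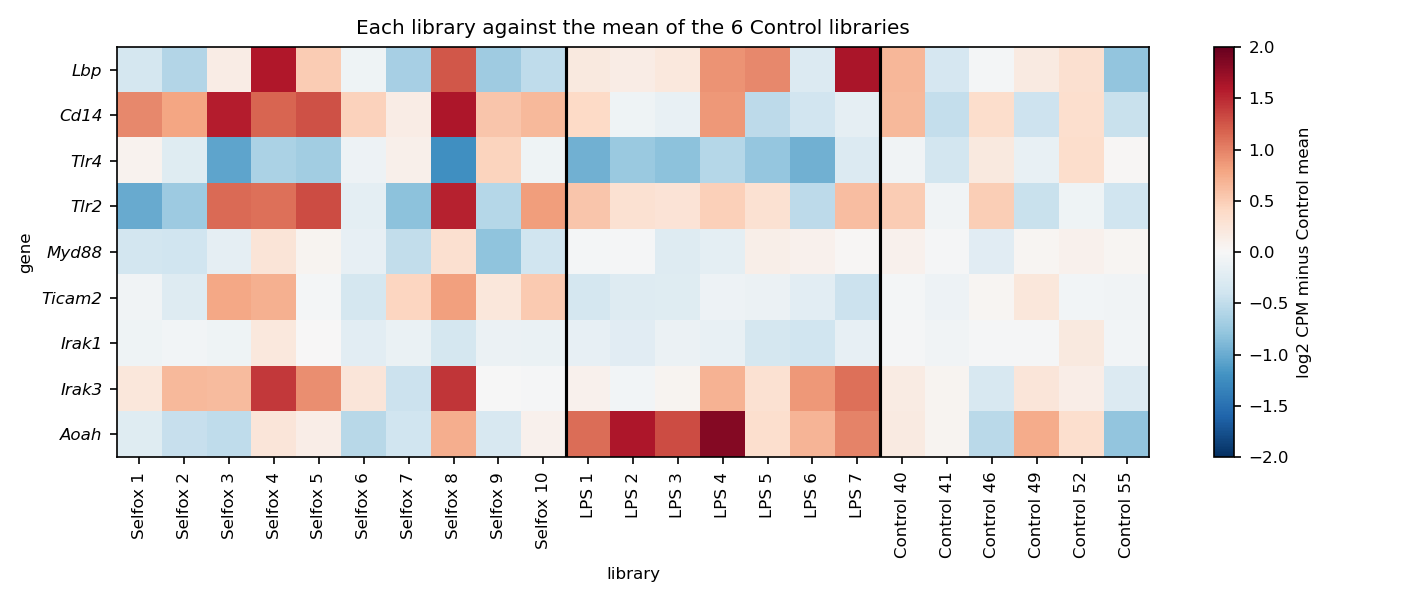
Log2 CPM of the 9 genes (rows) in each library (columns) minus the mean of the 6 Control libraries, red above and blue below it, on a scale from -2 to 2, with black lines between Selfox, LPS and Control. Selfox 3, 4, 5 and 8 are red for Tlr2, Irak3 and Cd14 and blue for Tlr4, and the Aoah row is red in all 7 LPS libraries.

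Over the 23 libraries pooled, several members moved together and Tlr4 moved against most of them. After subtracting group means, Pearson's r of log2 CPM between pairs of members ranged from -0.716 to 0.766 over the 23 libraries. It was highest for Lbp with Irak3 (0.766) and Myd88 with Irak3 (0.756). The lowest values were those of Tlr4 with Myd88 (-0.716) and with Tlr2 (-0.608). Selfox 8 had the highest Cd14 (81.8 CPM), Tlr2 (14.3), Myd88 (33.4), Irak3 (33.4), Ticam2 (3.06) and Aoah (1.4) of the Selfox group and its lowest Tlr4 (1.15) and Irak1 (76.1). Selfox 9 stood at the other end for Myd88 (15.3 CPM), Lbp (61.6) and Tlr4 (3.7, the highest of all 23 libraries). Selfox 4 had the highest Lbp and Irak1 of the group (308 and 113 CPM). Among LPS libraries, LPS 4 had the highest Cd14 and Aoah (48.8 and 3.04 CPM), LPS 7 the highest Lbp, Irak3, Tlr4 and Tlr2 (315, 26.8, 2.25 and 7.56 CPM), and LPS 5 the lowest Cd14 and Aoah (18.5 and 1.06 CPM). LPS 6 had the lowest Tlr4, Tlr2 and Lbp (1.39, 3.4 and 83.3 CPM), though its Irak3 was high at 22.7 CPM. At both ends of the LPS group Tlr4 thus went with Tlr2 and Lbp, and r was not taken within single groups.

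The genes whose profile was most like that of a member were taken from all 15079 genes by Pearson's r of log2 CPM, after subtracting the mean of each group, over the 23 libraries. They are a description of these libraries, chosen as the highest of many, and carry no test. Lbp went with the complement gene Cfb (r = 0.912, Spearman's rho = 0.925), Phc2 (r = 0.893, rho = 0.894) and Fam220a (r = 0.897, rho = 0.869). Without Selfox 4 and Selfox 8, the libraries farthest from the median of Lbp, r was 0.88, 0.86 and 0.84. Cd14 went with Fam110d (r = 0.757, rho = 0.783), the metalloproteinase inhibitor gene Timp1 (r = 0.752, rho = 0.746) and the prostaglandin synthase gene Ptgs2 (r = 0.75, rho = 0.745), and without LPS 4 and Selfox 8 these were 0.749, 0.749 and 0.74. Aoah went with the semaphorin gene Sema4c (r = 0.781, rho = 0.837), the actin regulator gene Evl (r = 0.78, rho = 0.756) and Ptafr, the receptor for platelet-activating factor (r = 0.758, rho = 0.774), and r was 0.733, 0.696 and 0.803 without Selfox 8 and LPS 5. Tlr4 went with Gpr37 (r = 0.832, rho = 0.656), Arvcf (r = 0.817, rho = 0.669) and AABR07024457.1 (r = 0.813, rho = 0.702), where r dropped to 0.71, 0.675 and 0.651 without Selfox 8 and Selfox 9.

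Of the other genes of the TLR4 signalling chain (adaptors, kinases and transcription factors downstream of the receptor), 18 were tested. In LPS over Control 2 rose and 0 fell, in Selfox over Control 1 rose and 1 fell, and in Selfox over LPS 1 rose and 1 fell, with list medians of -0.00, 0.02 and 0.04 on the log2 scale. Beside these counts and those of the later lists, 14.2% of all genes tested were higher and 14.9% lower in Selfox over Control. The shares were 7.71% and 6.99% in LPS over Control, and 6.86% and 7.64% in Selfox over LPS. Values for this and the next 3 lists are log2 fold changes ± SE. Ikbke, a kinase that activates interferon regulatory factors, rose in both models, by 1.02 ± 0.18 in Selfox over Control (adjusted p = 0.000219, 10 of 10 Selfox libraries above every Control library) and by 0.73 ± 0.19 in LPS over Control (adjusted p = 0.0108, 6 of 7). Without the late-clock libraries 0 of the list rose and 1 fell in LPS over Control, and the Ikbke value was 0.49 (adjusted p = 0.10). The NF-kB kinase gene Ikbkb rose in LPS livers by 0.32 ± 0.11 (adjusted p = 0.0453, lost in 10 of 13 fits without 1 library). In Selfox the death-domain kinase gene Ripk1 fell by 0.22 against Control and by 0.22 against LPS, calls lost in 12 of 16 and 12 of 17 such fits, and Tbk1, the partner kinase of Ikbke, was 0.26 ± 0.076 higher than in LPS (adjusted p = 0.0225, or 0.0623 when the late-clock libraries were left out).

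Of genes that restrain TLR4 signalling 14 were tested. In Selfox over Control 4 rose and 2 fell, in LPS over Control 1 rose and 2 fell, and in Selfox over LPS 4 rose and 1 fell (medians 0.08, 0.03 and 0.06). The largest values were those of Tnfaip3, the ubiquitin-editing enzyme A20, and Nfkbia, the NF-kB inhibitor, which rose in Selfox over Control by 4.06 ± 0.81 (adjusted p = 0.000846, 7 of 10 libraries above every Control library) and 2.04 ± 0.42 (adjusted p = 0.00109, 8 of 10). Over LPS they were 3.39 ± 0.72 and 1.94 ± 0.39 higher in Selfox, calls lost without the late-clock libraries (adjusted p = 0.0601 and 0.0513). Sigirr, an inhibitory receptor of the interleukin-1 receptor family, rose in both models, by 0.38 ± 0.068 in Selfox over Control (10 of 10 libraries above every Control library) and by 0.28 ± 0.073 in LPS over Control (7 of 7). Tnip1, a partner of A20, rose in Selfox by 0.36 ± 0.11 against Control and by 0.35 ± 0.10 against LPS, the second of these lost without LPS 6. Of the falls, Cyld fell in Selfox by 0.19 and in LPS by 0.23, and Ly86 and Cd180, which form a TLR4-like receptor complex on B cells and macrophages, split between the models. Ly86 fell in Selfox over Control by 0.58, and Cd180 fell in LPS over Control by 0.54, a call lost in 9 of 13 fits without 1 library, while in Selfox over LPS it was 0.70 ± 0.16 higher. Without the late-clock libraries the counts were 4 and 4 in Selfox over Control, 1 and 0 in LPS over Control and 1 and 0 in Selfox over LPS. The Cyld call in LPS was lost without Control 52, and that in Selfox without Control 41, 46 or 52.

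Of 15 tested genes for other ways of binding, clearing or sensing LPS, 1 rose and 4 fell in Selfox over Control, 1 rose and 0 fell in LPS over Control, and 1 rose and 6 fell in Selfox over LPS (medians -0.05, 0.01 and -0.12). Pltp, the phospholipid transfer protein that moves LPS onto lipoproteins, averaged 23.3 CPM in Selfox, 49.5 in LPS and 45.2 in Control, and all 10 Selfox libraries lay below every library of either other group (-0.95 ± 0.12 over Control, adjusted p = 5.57e-06, and -1.08 ± 0.11 over LPS, adjusted p = 8.12e-07). Scarb1, the lipoprotein receptor SR-BI, fell in Selfox by 0.67 ± 0.10 against Control (9 of 10 below every Control library). Cd36, a scavenger receptor, was 0.88 ± 0.25 higher in Selfox (8 of 10 above). The integrin gene Itgb2, carried by leukocytes, fell in Selfox by 0.49 ± 0.14 against Control, a call lost without Control 52, and by 0.67 ± 0.14 against LPS. Gbp2, an interferon-induced GTPase that binds bacterial surfaces, was 1.63 ± 0.32 higher in Selfox than in LPS (adjusted p = 0.00173). In LPS livers Gsdmd, the pore-forming gasdermin that is cleaved after cytosolic LPS sensing, was 0.45 ± 0.089 higher than in Control (adjusted p = 0.00192), with 6 of 7 libraries above all Control libraries. In Selfox over LPS Gsdmd was 0.33 lower on the log2 scale, a call lost without the late-clock libraries (adjusted p = 0.089). Without them the counts were 2 higher and 4 lower in Selfox over Control, 1 and 1 in LPS over Control, and 1 and 3 in Selfox over LPS.

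Of 14 tested genes of other Toll-like receptors and their chaperones, 1 rose and 7 fell in Selfox over Control, and 1 rose and 0 fell in LPS over Control (medians -0.17 and -0.05). The riser in both was Tlr5, the flagellin receptor, at 1.11 CPM in Selfox, 0.831 in LPS and 0.359 in Control on average, with all Selfox and all LPS libraries above every Control library (log2 fold change 1.61 ± 0.25 with an adjusted p of 6.45e-05, and 1.20 ± 0.26 with an adjusted p of 0.00367). Levels this low rest on few reads, above all in Control, which limits the precision of the Tlr5 values. The falls in Selfox included Unc93b1, the chaperone of the endosomal receptors (-0.43 ± 0.097, adjusted p = 0.00198), Tlr8 (-0.85 ± 0.19, adjusted p = 0.00207) and the chaperone gene Cnpy4 (-0.46 ± 0.11, adjusted p = 0.00435). In Selfox over LPS 1 rose and 3 fell (median -0.12), and the riser was Tlr7, the sensor of single-stranded RNA, at 1.11 ± 0.27 (adjusted p = 0.00791, or 0.0632 when the late-clock libraries were left out). Against LPS, Selfox livers had lower Unc93b1 (-0.37 ± 0.093), Tlr8 (-0.62 ± 0.18, lost without LPS 1, 2 or 4) and Tlr12 (-0.79 ± 0.26, lost in 11 of 17 fits without 1 library). Without the late-clock libraries 0 rose and 2 fell in Selfox over LPS, and 1 rose and 6 fell in Selfox over Control. Several of these receptors are carried by macrophages, and the Kupffer marker sum of Selfox was below that of every Control library. Its part in the falls was not tested.

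**Figure D5:**
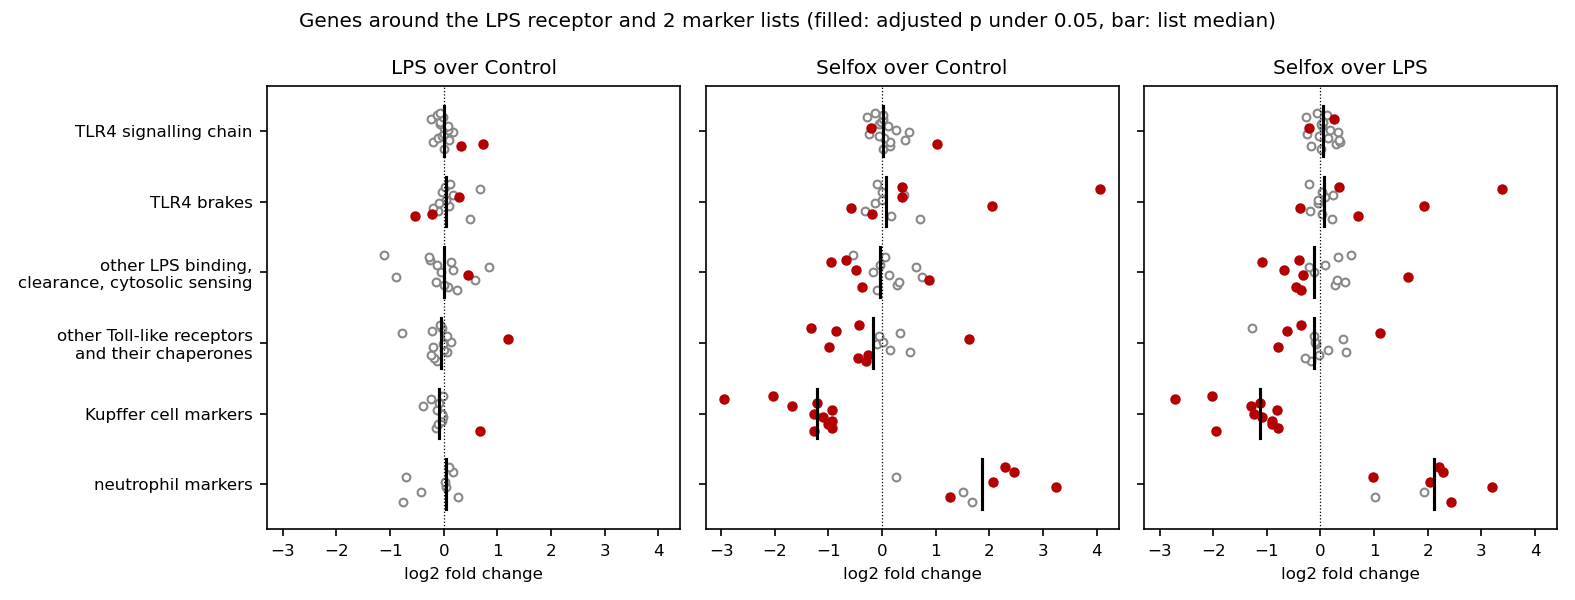
Log2 fold change (horizontal axis) of every tested gene in the 4 lists around the LPS receptor and in the Kupffer cell and neutrophil marker lists, in the 3 comparisons. Filled red points passed the test and black bars are list medians: in Selfox all 11 Kupffer markers lie left of 0 against both other groups, while the 4 pathway lists have medians between -0.17 and 0.08 in all panels.

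Monocyte markers had 0 of 6 called in each of the 3 comparisons by edgeR, with summed levels of 22.9 to 86.7 CPM in Selfox, 33.3 to 51.9 in LPS and 33.2 to 62.2 in Control. Among them Fcnb had a log2 fold change of -0.91 in LPS over Control (adjusted p = 0.204 by edgeR). T and NK cell markers were higher in LPS over Control for 2 of 8, lower in Selfox over Control for 3 of 8 and lower in Selfox over LPS for 8 of 8, among them Cd2 and Gzma in both comparisons with LPS and Cd8a, Cd3g and Cd3d in Selfox over Control. Without the late-clock libraries these counts were 0, 3 and 4. Their summed level was 6.72 to 10.4 CPM in Selfox, 11.6 to 18.5 in LPS and 10 to 12.6 in Control, with medians of 8.32, 12.9 and 10.9, and their part in the Aoah result was not tested. Of B cell markers 1 of 4 was higher in LPS over Control (Jchain), 3 of 4 lower in Selfox over Control (Cd79b and Ms4a1 among them) and 1 of 4 lower in Selfox over LPS (Jchain). In fits without the late-clock libraries 1 of 4 was lower in Selfox over Control, where Ms4a1 had an adjusted p of 0.192, a call also lost in 11 of 16 fits without 1 library. Of stellate cell markers 1 of 8 was higher in LPS over Control (Tcf21), 2 higher (Lrat and Des) and 2 lower (Hgf and Colec11) in Selfox over Control, and 3 lower in Selfox over LPS (Tcf21, Colec11 and Hgf). With the late-clock libraries left out 2 were higher in LPS over Control and the other counts stayed. Of hepatocyte markers, the source of Lbp, 2 of 8 were higher and 4 lower in Selfox over Control (Apoa1, Hnf4a, Serpina1 and Alb), 3 lower in Selfox over LPS (Apoa1, Serpina1 and Hnf4a) and 0 called in LPS over Control by edgeR. Leaving out the late-clock libraries, 1 was lower in Selfox over LPS, with Serpina1 (adjusted p = 0.123) and Hnf4a (0.19) lost, and 1 was higher in LPS over Control. Sinusoidal endothelial markers had 1 of 8 higher (Kdr) and 2 lower (Oit3 and Flt4) in Selfox over Control and 2 higher in Selfox over LPS (Kdr and Lyve1). The Oit3 and Flt4 calls were lost in 10 and 11 of 16 fits without 1 library, and that of Kdr over Control in 4 of 16. When the late-clock libraries were left out 1 was higher and 2 were lower in Selfox over LPS, with an adjusted p of 0.0517 for Kdr.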

How the data were processed

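The deposited table holds raw read counts per gene symbol, with 28913 rows and 1 column per library. Per the submitters' processing notes, the authors used FastQC, Trim Galore, STAR 2.7.9a and featureCounts of Subread 2.0.3. The sources used here name no genome build, annotation or strand setting. The labels name a stranded mRNA kit. Of counts from 1 to 9, 66.1% to 74.9% were even, so both ends of a read pair may have been counted; halved counts are an alternative.

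Genes were kept by filterByExpr (minimum count 10), scaled by TMM and fitted over all 23 libraries with robust quasi-likelihood in edgeR 4.0.16 (R 4.3.3), at a threshold of 0.05. CPM use TMM-scaled library sizes, log2 CPM a prior count of 2. A standard error is the size of the log2 fold change over the root of its F statistic. Recovery was checked on simulated data. Motifs were searched in RefSeq promoters (GRCr8), and RefSeq gave overlapping genes.

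All members are named. Of each list, up to 4 called genes per comparison are named, by adjusted p. The NF-kB and ISRE consensus replaced looser patterns, both of which matched Aoah, after those had been run. Members and lists were chosen with earlier results of these data known. Alternatives were other scalings and filters, DESeq2 1.42.0, limma 3.58.1 voom, 2-group fits, left-out libraries, equal depth, halved counts and a replicate block. Of the genes listed around the members and for cell types, those with no row were not analysed here. The values of 2 marker genes are not reported here.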

Additional observations from a re-analysis of the deposited data

Results flagged for a closer look

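Among the 27 sets of values examined (9 genes in 3 groups), 3 held a library far from the rest of its group, by a gap to its nearest neighbour that was large against the range of the group; about 1 in 20 such sets is expected to by chance. For Myd88, Control 46 was low at 4.51 log2 CPM, with 4.72 to 4.83 in the other Control libraries. For Irak1, Control 52 was high at 6.80 log2 CPM, with 6.53 to 6.58 in the others, and without it the fall of Irak1 in LPS livers was not called. For Tlr2, LPS 6 was low at 1.78 log2 CPM, with 2.57 to 2.92 in the other LPS libraries.

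For 3 genes the effect of Selfox differed from that of LPS against the shared Control libraries, by the test of Selfox over LPS. The log2 fold change in Selfox over LPS was -1.31 for Aoah (adjusted p = 0.000519), 0.93 for Cd14 (adjusted p = 0.0113) and 0.59 for Ticam2 (adjusted p = 0.0127), by edgeR. Without the late-clock libraries only Aoah stayed called. Cd14 was then at 0.59 (adjusted p = 0.192) and Ticam2 at 0.52 (adjusted p = 0.0993), by edgeR.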

How the results depend on the processing

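Each alternative was run for the 9 members in the 3 comparisons. Of 702 values of single members under an alternative, 684 kept their side of the threshold, 15 lost a call, 3 gained one and 0 changed sign where a call was made. Most of the 702 belong to results that were not called and so had no call to lose. The losses fell on Irak1 and Tlr4 in LPS over Control and on Cd14 and Ticam2 in Selfox over LPS. Irak1 lost its call in 7 of 13 fits without 1 library and in 2 of 10 other alternatives. The number of members called in Selfox over Control was 2 with DESeq2, against 1 by edgeR. Without the late-clock libraries the number in Selfox over LPS was 1 against 3 (Aoah stayed called), and 1434 genes were called in all against 2187. With the replicate block over LPS 1 to 7 and Selfox 1 to 7, which share numbers in the titles, 1259 genes were called, and the Ticam2 value was 0.43 (adjusted p = 0.161); the same 14 libraries without a block, a run added after the data were seen, gave 0.49 (adjusted p = 0.0961). The numbers did not pair the samples: deviations of same-numbered libraries correlated over 0.1 in 1 of 7 pairs (-0.07 to 0.15), and in 1 of 7 the own number was the highest. With 1 library left out in turn, members called numbered 1 to 3 in LPS over Control (1 without Control 46 or Control 52), 1 to 2 in Selfox over Control (2 without Selfox 7) and 3 to 4 in Selfox over LPS. Over all genes 1409 to 2723 were called in LPS over Control (1409 without Control 49) and 3638 to 4705 in Selfox over Control. Causes were not tested. Aoah, Tlr4 and Ticam2 had fewer than 250 reads in every library, which limits the precision of their values.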
